A study of Mus musculus with 16 samples.

Results

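Transcripts of the T cell receptor loci were examined in ILC2s sorted from the lungs of WT and *Pac1-/-* mice. The members, selected on their counts in these libraries, were the genes of the raw count table whose mouse symbol marks a T cell receptor alpha, beta, gamma, or delta variable (V), diversity (D), joining (J), or constant (C) segment and that reached 10 counts in at least 1 of 16 libraries. Of 268 such genes in the table, 109 had at least 1 count and 67 were members, among 51912 genes in all. The members comprised 8 of 8 constant segments, 40 of 176 V segments, 2 of 4 D segments, and 17 of 80 J segments. By locus, 17 of 189 alpha, 30 of 53 beta, 6 of 11 delta, and 14 of 15 gamma genes were members. Just outside the threshold were *Trdj2* with at most 9 counts and *Trbj1-4* and *Trbv31* with at most 8, and just inside were *Trav6-5*, *Trgj2*, and *Trbv9* with at most 11.

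T cells build their antigen receptors by V(D)J recombination, in which the RAG enzymes cut the DNA and join a V, sometimes a D, and a J segment, and the joined exon is then spliced to a constant segment. The finished alpha-beta or gamma-delta chains reach the cell surface only together with the CD3 subunits encoded by *Cd3e*, *Cd3d*, *Cd3g*, and *Cd247*. ILC2s share developmental steps with T cells but carry no T cell receptor on their surface. Unrearranged receptor loci can also be transcribed, and such germline transcripts can hold a constant segment without any V segment.

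The mice were 6 to 8 weeks old and on the C57BL/6J background in all groups, and *Pac1-/-* mice lacked the phosphatase PAC1, which is encoded by *Dusp2*. Lung ILC2s were sorted after magnetic removal of most T cells and other lineages, and all groups had in common an expansion of 1 to 2 weeks with IL-2 at 50 ng/mL and IL-7 at 100 ng/mL. The cells were then held for 4 hours with 100 ng/mL IL-7 alone, with IL-7 plus 100 ng/mL of the alarmin IL-33, or with both cytokines plus 500 ng/mL of the neuropeptide CGRP or NMU, and about 500 ILC2s were lysed for each library. WT and *Pac1-/-* ILC2s had 2 libraries per treatment, so each treatment had 4 libraries and each genotype 8. The sources used here do not say how many animals stand behind a library, so *P* values measure the spread between libraries, which may be technical.

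Total counts per library were 6764992 to 15963357, and 3 counts correspond to 0.188 to 0.443 CPM, the level scaled to the total of the library, which covers counting error only. *Dusp2* had 57 counts in WT IL-7 replicate 2, 29 in WT NMU replicate 1, and 0 in the other libraries, too few to check the genotype labels. Of 12 ILC2 marker genes, 11 reached 10 counts, and the list summed to 5754 to 8887 CPM, whereas *Ptgdr2* had at most 4 counts. Of 12 alpha-beta T cell markers, which include *Cd3e*, *Cd3d*, and *Cd3g*, 8 reached 10 counts in at least 1 library. *Cd8a* had 0 counts in all 16 libraries, and *Cd4*, *Cd5*, and *Cd6* stayed below 10 counts in every library. *Cd8b1* had at most 65 counts, *Cd28* 135, *Themis* 180, *Lck* 228, and *Trat1* 328. Transcripts of other cells were unevenly spread over the libraries, and those that set the IL-7 libraries apart are given with the IL-33 comparison. The B cell markers *Cd79b* and *Ms4a1* had 157 and 149.6 CPM and 81.5 and 69.8 CPM in the *Pac1-/-* CGRP libraries, and at most 57.7 and 10.97 CPM elsewhere. The marker *Cd79a* had 20.8 and 16.2 CPM there and at most 6.98 CPM elsewhere, whereas *Pax5* had at most 5.10 CPM in any library. Lung epithelial markers (*Sftpc*, *Scgb1a1*, *Epcam*, and *Krt18*) summed to 296 and 199 CPM in the WT NMU libraries and to at most 94.6 CPM elsewhere. Most of this was *Sftpc* and *Scgb1a1*, whereas *Epcam* had 37.55 and 41.3 CPM there and up to 91.9 CPM elsewhere. A list of 5 myeloid markers summed to 107.6 and 33.1 CPM in the WT NMU libraries and to at most 7.88 CPM elsewhere. That sum was nearly all *Lyz2*, and *Itgam*, *Itgax*, and *Csf1r* had 0 counts in these libraries.

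The D and J segments are shown here because the reads assigned to them bear on what the counts hold. The segments of the beta locus on chromosome 6 were read from GENCODE M21 transcripts (GRCm38), and all lie on the forward strand. Capitals mark matches to TTNGG followed by 4 bases of any kind and GGN, searched on the coding strand, a motif that encodes the phenylalanine and glycines that J regions share. The motif was present in 8 of 11 beta J members and in 63 of 86 annotated T cell receptor J transcripts (73.3%). The segments are chr6:41533201-41533212 for *Trbd1*, chr6:41533864-41533911 for *Trbj1-1*, chr6:41535084-41535133 for *Trbj1-5*, chr6:41535554-41535606 for *Trbj1-6*, chr6:41535642-41535687 for *Trbj1-7*, and chr6:41542163-41542176 for *Trbd2*. *Trbj1-6* and *Trbj1-7* hold no match.
Trbd1: gggacagggggc
Trbj1-1: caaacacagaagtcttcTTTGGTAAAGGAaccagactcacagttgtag
Trbj1-5: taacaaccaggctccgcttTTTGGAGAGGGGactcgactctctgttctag
Trbj1-6: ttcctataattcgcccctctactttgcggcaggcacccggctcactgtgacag
Trbj1-7: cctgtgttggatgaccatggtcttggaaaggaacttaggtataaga
Trbd2: gggactgggggggc
*Trbd2* is 14 bases long and *Trbd1* 12, far shorter than a read, so every read counted on them also covers sequence outside the annotated segment. Whether that sequence is germline flank or a joined segment cannot be told from gene counts.

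The highest V segment transcript was *Trdv4*, whose 3′ end lies at chr14:54075426-54075515 on the forward strand. Its last 90 bases are printed because most V counts came from this gene, and capitals mark the tyrosine, tyrosine, and cysteine codons that close V regions.
Trdv4: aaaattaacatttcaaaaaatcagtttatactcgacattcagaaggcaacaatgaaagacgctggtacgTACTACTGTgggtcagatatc
*Trdv4* held 63.3% to 97.3% of all V counts of a library, with a median of 88.6%. Constant segments together held 58.1% to 87.9% of the counts of all members.

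Per kilobase of exon, the mean level over the 16 libraries was 525 CPM for *Trbc2* and 318 CPM for *Trbc1*, the beta constant segments, 204 CPM for *Tcrg-C4*, 103 CPM for *Tcrg-C1*, and 17.0 CPM for *Tcrg-C2*, 3 gamma constant segments. It was 4.34 CPM for *Trac*, the single alpha constant segment, 3.27 CPM for *Trdc*, the single delta constant segment, and 0.749 CPM for *Tcrg-C3*. The libraries of neighbours in this order overlapped. The beta constant segments did not overlap with *Trac*, which ranged from 0.294 to 7.46 CPM without scaling to length. *Trdv4* had 471 CPM per kilobase. The CD3 genes had 35.7 CPM per kilobase for *Cd3g*, 15.7 for *Cd3d*, and 0.42 for *Cd3e*.

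*Trbc1* and *Trbc2* are 95.6% identical over 521 bases, and *Tcrg-C1* and *Tcrg-C3* are 96.9% identical over 649 bases, so reads may have been divided between the members of each pair in a way the counts do not show. *Tcrg-C3* had 96 counts in *Pac1-/-* IL-7 replicate 2 and at most 1 count in the other libraries. Including these genes, 17 members, 12 of them V segments, had a near-identical stretch of at least 100 bases in another gene.

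**Figure D1:**
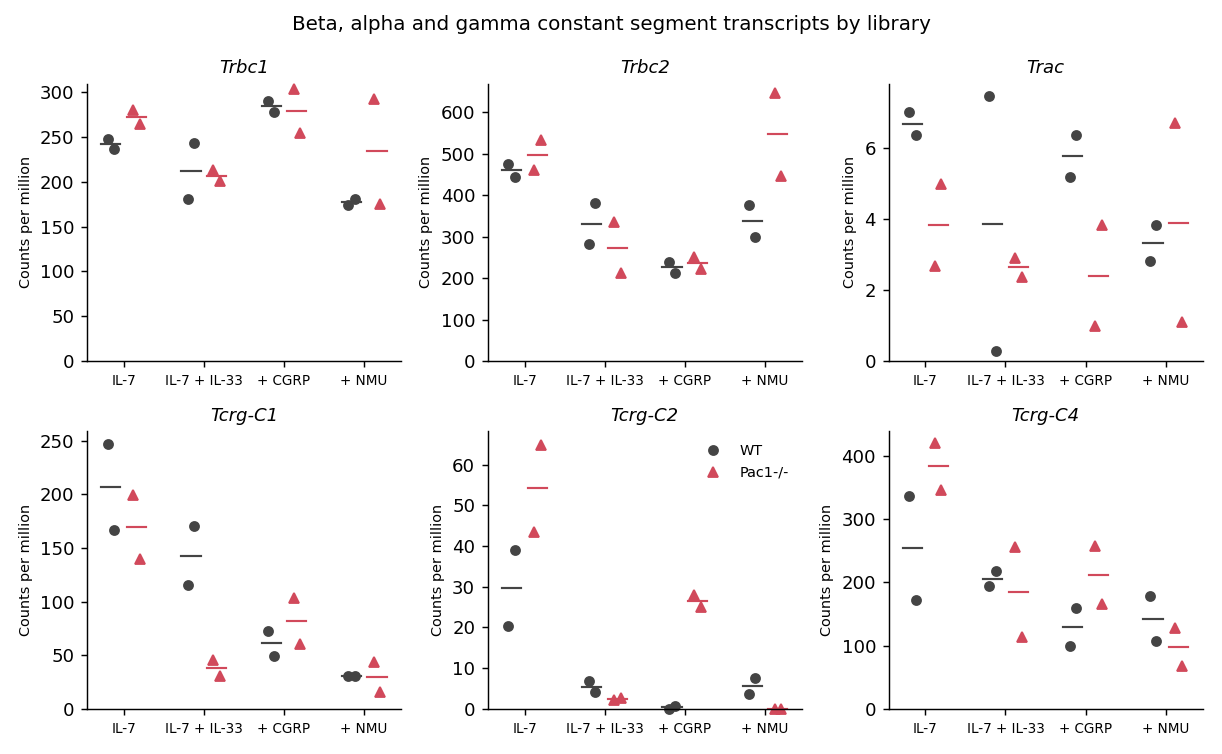
Level of 6 constant segment transcripts in CPM (vertical axes, linear from 0) in each library by treatment (horizontal axes, CGRP and NMU given on top of IL-7 plus IL-33). Circles are WT and triangles *Pac1-/-* libraries, and bars are the means of 2 libraries. *Tcrg-C2* was between 20.5 and 64.9 CPM with IL-7 alone and at most 28.1 CPM elsewhere, where the 28.1 and 25.1 CPM are the *Pac1-/-* CGRP libraries.

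Genotypes were compared over all treatments with edgeR's quasi-likelihood test in 1 fit of all 16 libraries, and a call required a change of more than 1.5-fold together with an adjusted *P* value (Benjamini-Hochberg) under 0.05. Both called members belong to the delta locus and went in opposite directions. Of the 46 members that passed the filter on low counts, *Trdc* was called higher and *Trdv4* lower in *Pac1-/-* ILC2s, where 17 of all 14979 genes tested were called (0.113%), 10 higher (0.0668%) and 7 lower (0.0467%). DESeq2's Wald test also called *Trdv2-2*, with 0.895% of all genes called. The median log2 fold change was 0.04 over the 46 members and 0.04 over all genes.

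*Trdc* (ENSMUSG00000104876; chr14:54142851-54148868, forward strand), the constant segment of the delta chain, had 7.27 and 8.95 CPM in WT and 51.4 and 46.1 CPM in *Pac1-/-* libraries with IL-7 alone. With IL-33, it had 1.33 and 0.686 CPM in WT and 16.7 and 14.9 CPM in *Pac1-/-* libraries. With CGRP, the values were 0.809 and 0.102 CPM in WT and 9.79 and 4.80 CPM in *Pac1-/-* libraries, of which the lowest is 1 count. With NMU, they were 2.51 and 2.17 CPM in WT and 19.7 and 14.8 CPM in *Pac1-/-* libraries. Both *Pac1-/-* libraries were above both WT libraries in each of the 4 treatments, a pattern shared with 0.234% of the genes tested. The ratio of the genotype means was 6.02 with IL-7, 15.6 with IL-33, 16 with CGRP, and 7.35 with NMU (*n* = 2 libraries per genotype), and over all treatments the log2 fold change was 3.30 (standard error 0.473, adjusted *P* = 0.0161, edgeR). Omitting single libraries gave values of 3.10 to 3.82, and the call held in 7 of 16 such fits. It was lost without either WT IL-7, *Pac1-/-* IL-7, WT IL-33, or WT NMU library or without *Pac1-/-* NMU replicate 1, with adjusted *P* values up to 0.102 from edgeR.

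Counts of *Trdc* carry more uncertainty than those of most members. Its annotated exons span 3865 bases, and the stretch between transcript bases 2513 and 2646 has near-identical copies in 11 other genes. They also share 207 bases with *Trdv5*, a delta V segment on the opposite strand, and 96 bases with the antisense gene *Gm43434*, and without a stated strand setting the reads of these genes cannot be told apart. *Trdv5* had 3.43 and 0.859 CPM in the *Pac1-/-* IL-7 libraries and 0 counts in the other 14.

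*Trdv4* (ENSMUSG00000076867; chr14:54074905-54075515, forward strand), a delta V segment that ends 67.3 kb before *Trdc* begins, had 194 and 222 CPM in WT and 109.8 and 125 CPM in *Pac1-/-* libraries with IL-7 alone. With IL-33, it had 223 and 212 CPM in WT and 100.4 and 61.2 CPM in *Pac1-/-* libraries. With CGRP, the WT libraries had 405 and 347 CPM and the *Pac1-/-* libraries 169.7 and 221 CPM. With NMU, the WT libraries had 266 and 244 CPM and the *Pac1-/-* libraries 212 and 233 CPM. In every treatment, the WT pair was above the *Pac1-/-* pair, as for 0.127% of the genes tested, although the WT mean was 1.77 times the *Pac1-/-* mean with IL-7, 2.69 times with IL-33, 1.93 times with CGRP, and 1.15 times with NMU. Over all treatments, the log2 fold change was −0.89 (standard error 0.149, adjusted *P* = 0.0446, edgeR). Leaving out 1 library at a time gave log2 fold changes of −1.01 to −0.78, and the call was lost without each of 14 of the 16 libraries, with edgeR adjusted *P* values up to 0.173, and kept without *Pac1-/-* IL-33 replicate 1 or WT CGRP replicate 2.

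Without both *Pac1-/-* CGRP libraries, which held the B cell transcripts, neither call passed, with edgeR adjusted *P* values of 0.131 for *Trdc* and 0.274 for *Trdv4* and log2 fold changes of 3.10 and −0.85. The genotype contrast then left out the CGRP treatment as a whole, WT libraries included, so fewer treatments were averaged. The WT NMU libraries had the highest *Sftpc*, *Scgb1a1*, and *Lyz2* levels. Without both of them, the adjusted *P* values from edgeR were 0.05002 for *Trdc*, just short of a call, and 0.039 for *Trdv4*. The log2 fold changes were 3.39 and −1.16, from a contrast that left out the NMU treatment as a whole. Both signs were the same without these libraries. *Trdv2-2*, another delta V segment that overlaps an antisense gene by 105 bases and is 97.4% identical to *Trdv2-1* over 306 bases, was detected in 6 of 8 WT libraries at over 2 CPM, whereas only *Pac1-/-* IL-7 replicate 1 reached that level among the *Pac1-/-* libraries, at 7.19 CPM. Its edgeR adjusted *P* value for genotype was 0.428. *Trdv1* reached 10 counts in 2 libraries, at most 93.

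**Figure D2:**
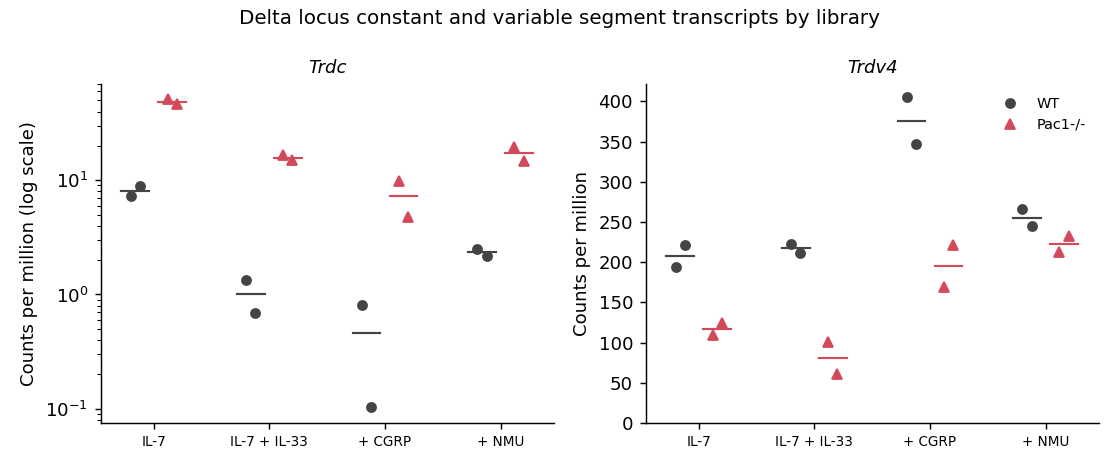
Level of *Trdc* (left, log scale) and *Trdv4* (right, linear from 0) in CPM in each library by treatment, with CGRP and NMU on top of IL-7 plus IL-33. Circles are WT and triangles *Pac1-/-* libraries, and bars are means of 2 libraries. In every treatment, *Trdc* was higher and *Trdv4* lower in both *Pac1-/-* libraries than in both WT libraries.

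IL-33 was compared with IL-7 alone over both genotypes. No member was called, where 5 of 14979 genes were (0.0334%), and 11 of the 46 members tested had an unadjusted *P* value under 0.05, all with lower levels in the IL-33 libraries (1480 of all genes). The median log2 fold change was −1.19 over the members and 0.08 over all genes. A member detected with IL-7 alone could pass the filter through those libraries and could then only be lower with IL-33. *Trbv13-3*, 1 of the 11, had 132 and 17 counts in 2 IL-7 libraries and 0 in all others. This median and the shared direction of the 11 therefore describe the members tested and not all 67. With DESeq2's Wald test, 6 members were called, *Tcrg-C1*, *Tcrg-C2*, *Tcrg-V1*, *Trbc2*, *Trdc*, and *Trgv2*, where 2% of all genes were.

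Of the 7 constant segments tested, 6 had an unadjusted *P* value under 0.05 for IL-33, and *Trac* did not. *Trbc2* had 476, 444, 461, and 533 CPM with IL-7 alone (WT replicates first) and 282, 381, 334, and 212 CPM with IL-33, so the treatments did not overlap. Its log2 fold change was −0.85 (standard error 0.233, adjusted *P* = 0.337, edgeR). *Tcrg-C2* had 20.5, 39.1, 43.4, and 64.9 CPM with IL-7 alone and 6.83, 4.02, 2.13, and 2.59 CPM with IL-33, also without overlap, and its log2 change was −3.68 (standard error 0.665, adjusted *P* = 0.136, edgeR). Leaving out either WT CGRP library, in which this gene was nearly absent, brought *Tcrg-C2* past the cutoff with edgeR adjusted *P* values of 0.0334 and 0.0337. *Tcrg-C1* had 247, 167, 199.8, and 139.8 CPM with IL-7 alone and 115, 171, 46.0, and 30.4 CPM with IL-33, where WT replicate 2 overlapped the IL-7 libraries. *Tcrg-C4* went from a mean of 319 ± 105 to 195 ± 60.0 CPM (SD, *n* = 4 libraries), and its libraries overlapped. Between these treatments, the log2 fold change of *Trdc* was −2.50 and that of *Trbc1* −0.48.

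Of the 46 members, 6 were lower in all 4 IL-33 libraries than in all 4 IL-7 libraries, as were 1.76% of all genes, and 0 were higher in all 4, as were 4.27%. They were *Trbc2*, *Tcrg-C2*, *Trgv2*, *Tcrg-V1*, *Tcrg-V4*, and *Trbj1-2*. *Tcrg-V1*, *Tcrg-V4*, and *Trgv2* are gamma V segments. *Trgv2* had 8.08, 17.3, 13.9, and 18.9 CPM with IL-7 alone and 2.43, 1.27, 0.646, and 0.931 CPM with IL-33 (log2 fold change −3.76, standard error 0.99, adjusted *P* = 0.337, edgeR). *Tcrg-V1* had between 7.07 and 10.2 CPM with IL-7 alone, and with IL-33 it had 0 counts in 3 of 4 libraries and 2.59 CPM in *Pac1-/-* replicate 1.

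The V members reached 10 counts in different libraries. This tally reuses the counts that selected the members and is a description without a test, with no allowance for depth. In the IL-7 libraries, 13 to 15 V members reached 10 counts, against 2 to 9 with IL-33, 7 or 8 with CGRP, and 3 to 6 with NMU, where total counts were 11172216 to 15963357, 9665251 to 15470650, 8333920 to 12366516, and 6764992 to 11646898. Of the 40 V members, 16 were members through IL-7 libraries only, 9 of them beta V segments. Among the beta V segments, *Trbv13-3* had 132 counts in WT IL-7 replicate 1, and *Trbv12-2* had 88 counts in *Pac1-/-* IL-7 replicate 2. In all, 17 V members reached 10 counts in 1 library only. *Trbv13-3* and *Trbv12-2* were chosen for mention after their values were seen.

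The 14 alpha V members were low throughout, with a sum of 0 to 18.5 CPM per library and a median of 3.55 CPM. Of all members, 21 did not pass the filter on low counts, among them *Tcrg-C3*, and the 46 that passed were 7 constant, 23 V, 2 D, and 14 J segments. Only 12 members had a count in all 16 libraries, and 22 reached 10 counts in at least 8.

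The libraries with IL-7 alone differed from the other 12 in further transcripts. The 5 genes called lower with IL-33 were *Klrc1*, *Klrd1*, *Xcl1*, *Ms4a4b*, and *Ccl5*, most of them known from NK and other cytotoxic lymphocytes. *Klrc1*, which encodes an NK receptor, had 68.9 to 109 CPM with IL-7 alone and at most 14.6 CPM in the other libraries, and the chemokine gene *Ccl5* had 328 to 524 CPM and at most 151 CPM. A list of 6 NK cell and ILC1 markers summed to 111 to 230 CPM with IL-7 alone and to at most 6.01 CPM elsewhere, most of it from *Gzma*, while *Tbx21* had 0 counts in all 16 libraries and *Ncr1* and *Prf1* at most 31 and 68. The list of 12 alpha-beta T cell markers summed to 242 to 336 CPM with IL-7 alone and to 65.6 to 199 CPM elsewhere. Most of that sum was *Cd3g* and *Cd3d*, so it largely repeats their levels. In the same list, *Cd28* had at most 2.65 CPM with IL-7 alone and up to 18.2 CPM elsewhere. *Themis* had at most 0.448 CPM with IL-7 alone and up to 18.6 CPM elsewhere. Of 6 gamma-delta T cell markers, 4 were in the table and summed to 117 to 126 CPM with IL-7 alone and to 26.5 to 98.1 CPM elsewhere. Most of that sum was *Maf*, while *Cd163l1* had 7.11 to 40.3 CPM with IL-7 alone and at most 4.74 CPM elsewhere and *Sox13* at most 1.76 CPM in any library. The part of these cells or transcripts in the receptor locus levels was not tested, and in bulk libraries fewer cells of a type and less RNA per cell cannot be told apart.

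**Figure D3:**
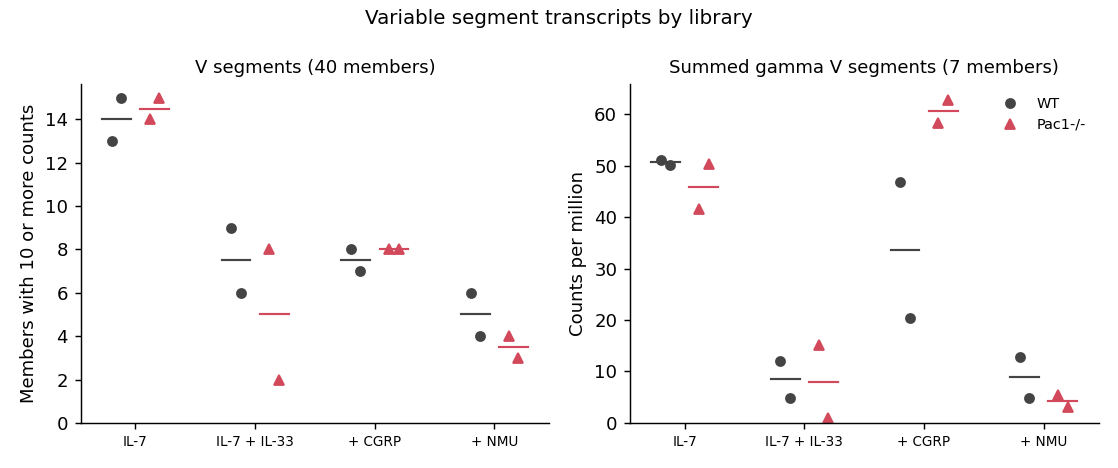
Left, number of the 40 V members with 10 or more counts in each library. Right, summed level of the 7 gamma V members in CPM. Circles are WT and triangles *Pac1-/-* libraries, bars are means of 2 libraries, and CGRP and NMU were given on top of IL-7 plus IL-33. The IL-7 libraries held 13 to 15 V members and the other libraries 2 to 9, by the counts that selected the members.

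CGRP was compared with IL-33 alone, a comparison that shares its IL-33 libraries with the one above and with that of NMU. *Trdv4* was the single member called, with higher levels under CGRP, where 247 of all genes were called higher (1.65%) and 413 in either direction (2.76%). Its mean was 149 ± 80.4 CPM with IL-33 and 286 ± 109 CPM with CGRP (SD, *n* = 4 libraries), and it was higher within each genotype, by the values given above. The log2 fold change was 1.27 (standard error 0.212, adjusted *P* = 0.00659, edgeR). The call held when any 1 of the 16 libraries was left out, with log2 fold changes of 1.11 to 1.52. Without both *Pac1-/-* CGRP libraries, the contrast compared WT libraries only, and the log2 fold change was 0.94 with an edgeR adjusted *P* value of 0.267. The median log2 fold change with CGRP was 1.17 over the 46 members tested and −0.09 over all genes. Unadjusted *P* values were under 0.05 for 7 members, all higher with CGRP (2505 of all genes). A member could pass the filter through the CGRP libraries. For example, *Trav5-1* had 20 and 74 counts in the *Pac1-/-* CGRP libraries and 0 elsewhere. Such a member could only be higher with CGRP, so the median and the shared direction describe the members tested and not all 67. DESeq2's Wald test called 5 members, *Trdv4*, *Trbc1*, *Trbd2*, *Trgv2*, and *Tcrg-V1*, and 8.61% of all genes.

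Of the 46 members tested, 5 were higher in all 4 CGRP libraries than in all 4 IL-33 libraries, as were 4.29% of all genes, and all 5 lie in the beta locus. They were *Trbj1-5*, *Trbj1-6*, *Trbj1-7*, *Trbc1*, and *Trbd2*, and in the locus the 3 J segments lie next to each other, followed by *Trbc1* and then *Trbd2*. *Trbj1-5*, *Trbj1-6*, and *Trbj1-7* were chosen for mention after their values were seen. *Trbj1-5* had 6.15, 6.15, 3.91, and 4.32 CPM with CGRP and at most 1.17 CPM in the other 12 libraries. *Trbj1-6* had 3.48, 3.38, 3.13, and 3 CPM with CGRP and at most 1.89 CPM elsewhere. *Trbj1-7* had 1.13 to 2.84 CPM with CGRP, whereas *Pac1-/-* NMU replicate 1 had 1.37 CPM and 8 of the 12 libraries without CGRP had 0 counts. It passed the filter on low counts through the CGRP libraries, so it could hardly be other than higher with CGRP. The segment printed first in this cluster, *Trbj1-1*, did not follow, with 5.74 to 22.7 CPM under CGRP and 9.11 to 11.7 CPM under IL-33.

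*Trbd2*, the second beta D segment, had 15.5, 5.54, 7.63, and 9 CPM with CGRP and 1.10, 2.06, 0.259, and 0.621 CPM with IL-33. The log2 fold change was 3.73 (standard error 1.25, adjusted *P* = 0.146, edgeR). *Trbc1*, the constant segment between the J segments above and *Trbd2*, had 290.3, 278, 303, and 254 CPM with CGRP and 181, 243, 213, and 201 CPM with IL-33 (log2 fold change 0.66, standard error 0.211, adjusted *P* = 0.127, edgeR). *Trbc2*, which lies behind the second D and J cluster, had 240, 212, 251, and 222 CPM with CGRP, within the range of the IL-33 libraries. *Trbj2-6*, a J pseudogene of that second cluster, was the 1 member lower in all 4 CGRP libraries, at 0.809 CPM or less against 1.16 to 1.73 CPM with IL-33, as were 7.20% of all genes, with few counts behind it. The ratio of *Trbc1* to *Trbc2* counts was 1.14 to 1.31 in the 4 CGRP libraries and 0.394 to 0.947 in the other 12, with means of 1.22 ± 0.0684 with CGRP and 0.715 ± 0.154 with IL-33 (SD, *n* = 4 libraries). The ratio was computed after the levels were seen and is given without a test.

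**Figure D4:**
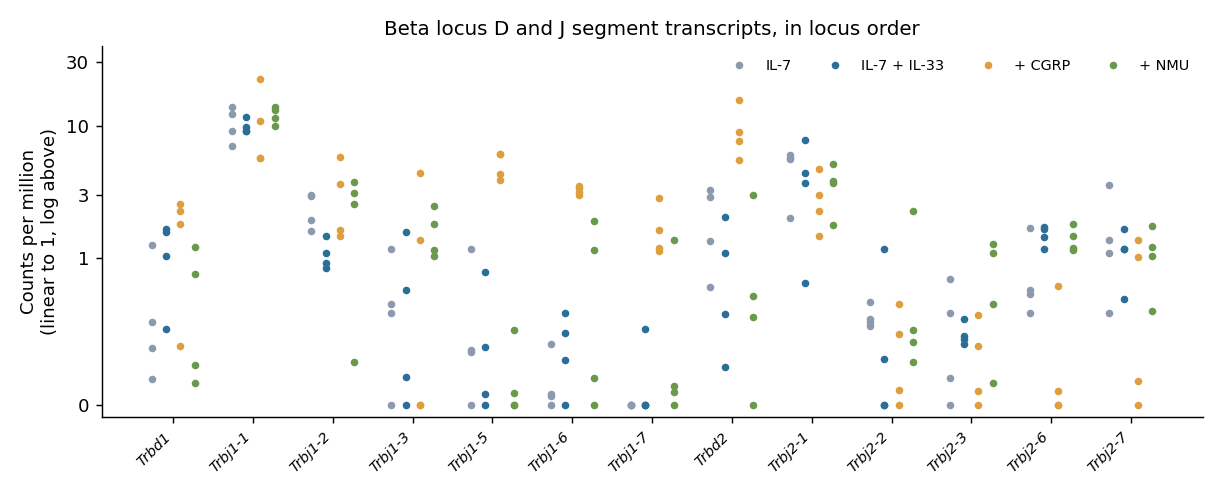
Level in CPM (vertical axis, linear to 1 and log above) of the 13 D and J members of the beta locus, in their order along the locus (horizontal axis). Each point is 1 library, coloured by treatment, with 4 libraries per treatment and CGRP and NMU on top of IL-7 plus IL-33. The CGRP libraries are above all IL-33 libraries at *Trbj1-5*, *Trbj1-6*, *Trbj1-7*, and *Trbd2*, and not at *Trbj1-1* or *Trbj2-1*.

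Gamma V segments had values with CGRP that varied between libraries. Their sum was 46.8 and 20.4 CPM in WT and 58.3 and 62.9 CPM in *Pac1-/-* libraries with CGRP, against 0.931 to 15.1 CPM with IL-33 and 41.6 to 51.2 CPM with IL-7 alone. *Trgv2* had 8.73 and 0.41 CPM in WT and 20.6 and 12 CPM in *Pac1-/-* libraries with CGRP (log2 fold change over IL-33 3.08, standard error 0.962, adjusted *P* = 0.125, edgeR), and it passed the cutoff without WT CGRP replicate 2. *Tcrg-V5* had 33.8, 14.2, 24.8, and 0.96 CPM with CGRP. *Tcrg-V6* had 0 counts in both WT CGRP libraries and 12.4 CPM in *Pac1-/-* replicate 2. *Tcrg-C1* and *Tcrg-C4* had log2 fold changes of 0.16 and −0.02 with CGRP.

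NMU added to IL-33 gave no call among the members, where 28 of 14979 genes were called (0.187%), and 5 members had an unadjusted *P* value under 0.05 (974 of all genes). The median log2 fold change was 0 over the members and −0.08 over all genes. *Trdv4* had a mean of 239 ± 22.4 CPM with NMU (SD, *n* = 4 libraries) and a log2 fold change of 0.98 over IL-33 (standard error 0.211, adjusted *P* = 0.125, edgeR), and it was called without *Pac1-/-* IL-33 replicate 1 (edgeR adjusted *P* = 0.0337). *Trbc2* had 376 and 299 CPM in WT and 648 and 446 CPM in *Pac1-/-* libraries with NMU, and the log2 change was 0.66 (standard error 0.233, adjusted *P* = 0.572, edgeR). *Tcrg-C1* had 31.0, 30.7, 43.5, and 15.7 CPM with NMU, and the log2 change was −1.14 (standard error 0.368, adjusted *P* = 0.472, edgeR). *Tcrg-C2* had 3.69 and 7.54 CPM in WT and 0 counts in both *Pac1-/-* libraries with NMU. No member was separated from the 4 IL-33 libraries in all 4 NMU libraries, higher (1.64% of all genes) or lower (2.90%). DESeq2's Wald test called *Trdv4* and *Tcrg-C2*, and 1.44% of all genes.

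The interaction of genotype and treatment was not called for any member or any gene (0%) with edgeR, and 4 members and 706 genes had an unadjusted *P* value under 0.05. Among these members were the gamma constant segments *Tcrg-C1* and *Tcrg-C2*, and the others were *Trgv2* and *Trdv4*. *Tcrg-C2* had 0.0809 and 0.82 CPM in WT and 28.1 and 25.1 CPM in *Pac1-/-* libraries with CGRP, whereas with NMU WT libraries were above *Pac1-/-* libraries (interaction adjusted *P* = 0.183, edgeR). *Trgv2*, which lies upstream of *Tcrg-C2* on the same reverse strand, had the same order of groups in these treatments. For *Trdv4*, the genotype difference was smallest with NMU, and *Tcrg-C1* had 115 and 171 CPM in WT and 46.0 and 30.4 CPM in *Pac1-/-* libraries with IL-33 but 73.0 and 49.1 CPM in WT and 103 and 60.6 CPM in *Pac1-/-* libraries with CGRP, with interaction adjusted *P* values of 0.878 for both (edgeR). DESeq2's likelihood ratio test called *Tcrg-C2* and 1% of all genes.

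The CD3 subunits differed from one another in level and in treatment. *Cd3d* (ENSMUSG00000032094) had 69.5, 76.5, 98.4, and 77.3 CPM with IL-7 alone and 2.15 to 25.7 CPM in the other 12 libraries, a log2 fold change of −3.28 for IL-33 over IL-7 (standard error 0.546, adjusted *P* = 0.0732, edgeR). It was called when either *Pac1-/-* CGRP library was left out. *Cd3g* (ENSMUSG00000002033) had 150.2 to 249.5 CPM with IL-7 alone and 37.9 to 153 CPM elsewhere, a log2 change of −1.39 (standard error 0.291, adjusted *P* = 0.214, edgeR). Between genotypes, *Cd3g* had a log2 fold change of −0.72 (standard error 0.203, adjusted *P* = 0.458, edgeR). That is the opposite sign to *Trdc* and the same sign as *Trdv4*. For genotype, the log2 fold change was −0.88 for *Cd3d* and −1.56 for *Cd3e* (adjusted *P* = 0.662 and 0.922, edgeR), and 0.34 for *Cd247*. *Cd3e* (ENSMUSG00000032093), which the assembly of the CD3 complex requires, had 8.61 CPM in *Pac1-/-* IL-7 replicate 1 and at most 3.58 CPM elsewhere, with 0 counts in 3 libraries. *Cd247*, the zeta subunit, had 0 to 34.4 CPM and no order by treatment. With IL-33, 0 of these 4 genes were called in the reported fit, as for the members, where 0.0334% of all genes were. Over 24 alternative fits, which include the omissions of single libraries, *Cd3d* was called for IL-33 in 7 and *Cd3g* in 2.

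**Figure D5:**
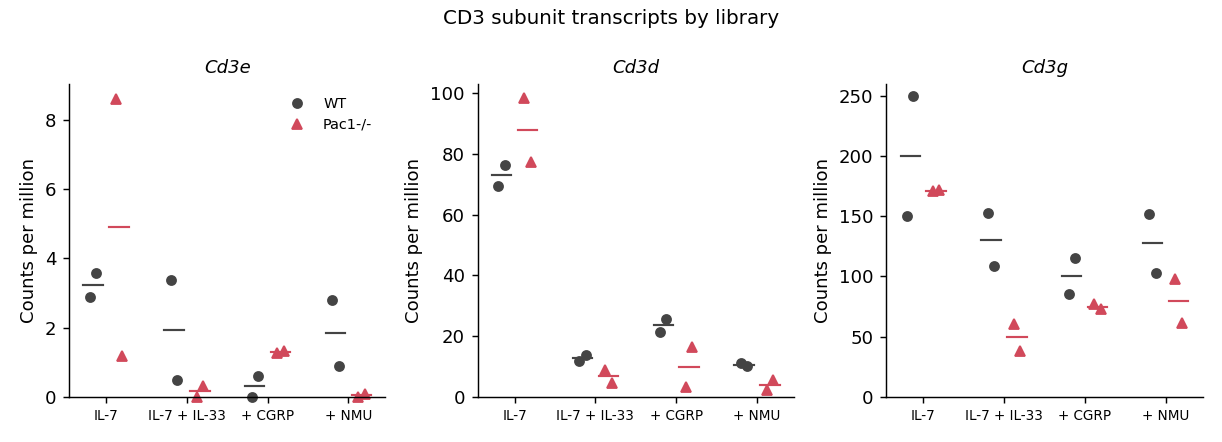
Level of *Cd3e*, *Cd3d*, and *Cd3g* in CPM (linear from 0) in each library by treatment, with CGRP and NMU on top of IL-7 plus IL-33. Circles are WT and triangles *Pac1-/-* libraries, and bars are means of 2 libraries. *Cd3d* was at 69.5 CPM or more with IL-7 alone and at 25.7 CPM or less in all other libraries.

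Across libraries, 7 constant segments were related to the 3 CD3 genes on the log2 CPM scale, 21 relations in all, with permutation tests (100000 permutations, two-sided) and Benjamini-Hochberg adjustment over the 21. Because the *Cd3d* libraries fall into separate clusters, its relations are given within the 12 IL-33-containing libraries. *Tcrg-C2* and *Cd3e* had Pearson's *r* = 0.806 (permutation *P* = 0.00017, adjusted *P* = 0.00357) and Spearman's rho = 0.779 (permutation *P* = 0.00062, adjusted *P* = 0.013) over 16 libraries. Without the 2 libraries farthest from the median of *Cd3e*, *r* was 0.82, and within the 12 IL-33-containing libraries it was 0.753 (permutation adjusted *P* = 0.0593). *Cd3e* counts were near the floor in most of these libraries. *Tcrg-C1* and *Cd3g* had *r* = 0.68 (permutation *P* = 0.00355, adjusted *P* = 0.0248) and rho = 0.718 (permutation *P* = 0.00248, adjusted *P* = 0.026). For this pair, *r* was 0.603 without the 2 farthest libraries and 0.462 within the 12 (permutation adjusted *P* = 0.586). After subtraction of the 8 group means, *r* was 0.298 for the first pair and 0.345 for the second, so most of each relation lay between groups.

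The other relations with *Cd3e* and *Cd3g* over 16 libraries had adjusted *P* values above the cutoff. *Trbc2* and *Cd3g* had *r* = 0.594 (permutation adjusted *P* = 0.0512) and 0.583 after subtraction of the group means, and *Trbc1* and *Cd3g* had *r* = 0.382 (permutation adjusted *P* = 0.241). *Tcrg-C4* had *r* = 0.605 with *Cd3e* and 0.568 with *Cd3g* (permutation adjusted *P* = 0.0512 for both). *Trac* had *r* = 0.176 with *Cd3e* and 0.434 with *Cd3g* (permutation adjusted *P* = 0.68 and 0.178). *Trdc* had *r* = 0.0994 with *Cd3e* and −0.0281 with *Cd3g*, and within the 12 IL-33-containing libraries it had *r* = −0.84 with *Cd3d* (permutation *P* = 0.00074, the 1 relation of 21 with an adjusted *P* value under 0.05 in these 12). Within the same libraries, the other constant segments had *r* between −0.331 (*Trbc2*) and 0.3 (*Tcrg-C1*) with *Cd3d*, with permutation adjusted *P* values of 0.594 or more. The permutations took no account of genotype or treatment. In each IL-33-containing treatment, *Trdc* was higher and the mean of *Cd3d* lower in *Pac1-/-* libraries. The *Cd3d* means were 12.8 (WT) and 6.82 CPM with IL-33, 23.6 and 9.73 CPM with CGRP, and 10.7 and 3.9 CPM with NMU. The relation of *Trdc* to *Cd3d* therefore cannot be told apart from the genotype differences. After subtraction of the group means, its *r* was −0.423 over 16 libraries, a set that includes the IL-7 libraries.

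The other genes of T cell receptor signalling were taken as a list of 22, including the CD3 subunits, coreceptors, and proximal kinases and adaptors, of which 17 were tested. None was called for IL-33, NMU, genotype, or the interaction, where 0.0334%, 0.187%, 0.113%, and 0% of all genes were. The median log2 fold change of the 17 genes was −0.47 with IL-33, 0.22 with NMU, and −0.11 between genotypes. Over all genes, it was 0.08, −0.08, and 0.04.

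Genes of V(D)J recombination were taken as a list of 12, of which 9 were tested and 0 called in any comparison. Of all genes, 0% to 2.76% were called, depending on the comparison. *Dntt*, which adds bases at the joints, had 0 counts in all 16 libraries, and the recombinase genes *Rag1* and *Rag2* had at most 8 and 10 counts. The remaining members of that list act in DNA repair or chromatin in many cell types. Their median log2 fold change was −0.02 with IL-33, −0.23 with CGRP, −0.35 with NMU, and −0.11 between genotypes. Over all genes, it was 0.08, −0.09, −0.08, and 0.04, in the same order.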

How the data were processed

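Bulk mRNA of lung ILC2s was amplified as full-length cDNA, and the authors aligned paired-end reads to mm10 (GRCm38) with HISAT2. The authors deposited unnormalized read counts, 1 value for each Ensembl gene in each library. The counting tool, annotation release, strand setting, and handling of multimapping reads are not given in the sources used here. Symbols, exon lengths, and segment sequences came from GENCODE M21, in which 51719 of 51912 identifiers were found.

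CPM values were counts divided by the total of the library, without molecular identifiers. Tests used edgeR 4.0.16 in R 4.3.3 with TMM normalization, filterByExpr, 1 fit of 8 groups, and the quasi-likelihood test, over 14979 genes, and were tested on simulated data. Contrasts averaged the genotypes or treatments, and the interaction was an omnibus test. Of 67 members, 46 were tested. The 21 others, most of them detected in few libraries, are described by counts only. Relations to CD3 genes were computed on log2 CPM (prior count 2) with scipy 1.17.1. BLAST 2.17.0 was used to find stretches of at least 100 bases at 95% identity. DESeq2 1.42.0 was an alternative.

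The members and the gene lists were chosen with earlier results of these data known. Genes named were all constant members, the 12 V, D, or J members with the highest summed CPM, called members, the CD3 genes, *Dusp2*, and called genes of the signalling list. The CGRP result of the signalling list is not reported here. Others are named as such or as threshold cases, overlaps, markers, and detection examples. Replicate numbers in the labels were not used to pair the libraries. In 0 of 28 group pairs were deviations of same-numbered libraries correlated above 0.1 (−0.0641 to 0.039). The spread between libraries was wide, so a shared source of same-numbered libraries could go undetected.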

Additional observations from a re-analysis of the deposited data

How the results depend on the processing

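Counts of members called moved with the tool and the filter. With DESeq2, 6 members were called for IL-33, 5 for CGRP, 2 for NMU, and 1 for the interaction, against 0, 1, 0, and 0 with edgeR. With no filter on low counts, edgeR called 3 for IL-33, 2 for CGRP, and 1 for the interaction. With at least 10 counts required in every library, which *Trdc* did not meet, it called 2 for CGRP, 1 for NMU, and 1 for genotype. For genotype, where 2 members were called in the reported fit, 1 was called with the libraries fitted additively (treatment as a covariate), 1 with the replicate block, and 1 without both WT NMU libraries. Without both *Pac1-/-* CGRP libraries, 0 were called for genotype and 0 for CGRP. In both of these settings, the treatment of the missing group dropped out of the genotype contrast. Its comparison with IL-33 then used the other genotype only. These settings without 2 libraries were chosen after seeing the data. The cause of these moves was not tested beyond the smaller gene set or number of libraries that some settings use. Leaving out 1 library at a time gave 0 to 1 members for IL-33, 1 to 2 for CGRP, 0 to 1 for NMU, 0 to 2 for genotype, and 0 to 1 for the interaction.

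Over all genes, no filter gave 199 calls for IL-33, 845 for CGRP, 116 for NMU, 117 for genotype, and 186 for the interaction among 32114 genes, and DESeq2 gave 299, 1290, 216, 134, and 150, against 5, 413, 28, 17, and 0. For NMU, a minimum of 10 counts in every library gave 53 and a fit of the compared libraries alone 13, which for CGRP gave 230. The replicate block gave 2 for IL-33, and omission of both *Pac1-/-* CGRP libraries gave 59 for CGRP and 5 for genotype. The 59 came from WT libraries only, and the 5 from a contrast without the CGRP treatment.

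The replicate block changed 1 call, that of *Trdv4* between genotypes (edgeR adjusted *P* = 0.0572). Of the named fold changes with an unadjusted *P* value under 0.05, 1 reversed, *Trgv2* between genotypes, at 0.22 without both WT NMU libraries. That contrast left out the NMU treatment as a whole. The number of CD3 relations with an adjusted *P* value under 0.05 over 16 libraries was 3, and 1 when CPM used total counts without TMM. The 3 include that of *Tcrg-C1* with *Cd3d*, whose libraries fall into separate clusters. The median summed level of all members was 1171 CPM and 1156 CPM for members with 50 or more counts in a library. RLE size factors and the adjusted *P* value alone left each number of members called unchanged.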
